A study of Drosophila melanogaster with 12 samples.

Results

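Bodies of adult Drosophila melanogaster that carry the C4 allele of RpII215, the gene for the largest subunit of RNA polymerase II, were compared with bodies of w1118 flies, the wild type of the study. The tested libraries were body mutant replicates 1 and 2 and body wild-type replicates 3 and 4, which lie in one range of sample numbers. Body wild-type replicates 1 and 2, from a far-off range, were shown as an outside check. They entered no main test. In all, 6 of the series' 12 libraries are bodies and are described here. Mutant heads 1 and 2 and wild-type heads 3 and 4, from the same range of sample numbers, shared the fits and are set beside the bodies at the end. Per the study's design text, both strains came from a stock centre and adult flies were dissected into heads and bodies. Total RNA was made into 3'READS or 3'READS+ libraries, in which each read marks the position where a poly(A) tail begins. The labels give no sex, no age, no number of flies, no copy number of the allele and no word on whether replicates are separate groups of animals. The p-values therefore measure only the spread between libraries, which may be technical, and in the fits that spread was shared over 8 libraries, the 4 tested bodies and 4 heads. The mutant flies are also another stock than w1118, so the allele and the genetic background cannot be told apart.

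RNA polymerase II copies protein-coding genes and most long non-coding RNA genes. The nascent RNA is cut and given its poly(A) tail while the enzyme still moves along the DNA, and many genes hold several such sites. Sites within the 3'UTR set its length, and sites upstream of it, in introns or coding exons, give shortened transcripts. The C4 allele carries a point mutation and is known for slow elongation, so the comparison asks which poly(A) sites and transcripts differ when the polymerase is slow. RpII215 itself lies on X, where genes were not named here, and counts of transcript ends do not read a point mutation, so the genotype was not checked from the data.

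The mutant libraries held 6146194 and 9062730 reads, against 8591047 and 8527199 in wild-type bodies 3 and 4, and 7142301 and 2219693 in wild-type bodies 1 and 2. Mutant body 1 stood apart from the other tested libraries. Mitochondrial positions took 4.50% of its reads (exact binomial 95% interval 4.48 to 4.51, counting error only) and 22.0% in mutant body 2, against 24.2% and 18.3% in wild-type bodies 3 and 4 and 5.31% and 17.8% in wild-type bodies 1 and 2. Over the log2 levels of 2836 genes, Pearson's r was 0.880 between the mutant bodies and 0.958 between wild-type bodies 3 and 4. Mutant body 2 correlated at 0.897 with wild-type body 4 and at 0.873 with wild-type body 3, and mutant body 1 at 0.815 and 0.768. These are correlations across genes, which are not independent replicates. The main counts of calls are therefore also given without mutant body 1.

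Marker genes checked the labelled tissue. The summed level of the male accessory gland markers Acp26Aa, Acp36DE and Acp62F was 5794 and 6989 CPM, the read count scaled to the library's total over named genes, in the mutant bodies, 7219 and 7516 in wild-type bodies 3 and 4, and 5514 and 6468 in wild-type bodies 1 and 2. Most of each sum was Acp26Aa, which overlapped between the tested groups, as did Acp36DE. Acp62F had 146 and 261 CPM in the mutant bodies, 744 and 665 in wild-type bodies 3 and 4, and 1087 and 1425 outside. The eggshell markers Vm26Aa, Vm26Ab and Vm32E summed to at most 2.70 CPM in any body library. The 4 photoreceptor markers summed to 46.8 and 77.2 CPM in the mutant bodies and 25.3 and 54.5 CPM in wild-type bodies 3 and 4. In wild-type bodies 1 and 2 they summed to 3500.3 and 4851 CPM, so the outside libraries carried eye transcripts that the 4 tested libraries had at a low level. Neuron markers stood at 72.1 and 91.7 CPM in the mutant bodies, 164 and 95.7 CPM in wild-type bodies 3 and 4, and 2936 and 955 CPM in wild-type bodies 1 and 2. Syt1 alone had 2686 and 784 CPM in wild-type bodies 1 and 2. The part of these transcripts in any difference from the outside libraries was not tested.

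To ask which transcripts differ in level, reads were summed per gene and compared between the 2 mutant bodies and wild-type bodies 3 and 4. A lysozyme, Drosomycin-like peptides, a C-type lectin, a serpin and a group of non-coding RNAs were higher in the mutant. A Methuselah-like receptor, a peroxisomal oxidase, muscle myosin, cytochrome c, a maltase and a seminal fluid protein were lower. Of 2836 genes tested with edgeR's quasi-likelihood test, 72 were called at an adjusted p under 0.05 (2.54%), 39 higher (1.38%) and 33 lower (1.16%), and 495 had an unadjusted p under 0.05 (17.5%). The median log2 fold change of all genes was 0.00. The groups did not overlap at any of the 72, nor at 1228 of the 2836 genes tested. Called genes had log2 fold changes of at least 1.58 in size.

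**Figure D1:**
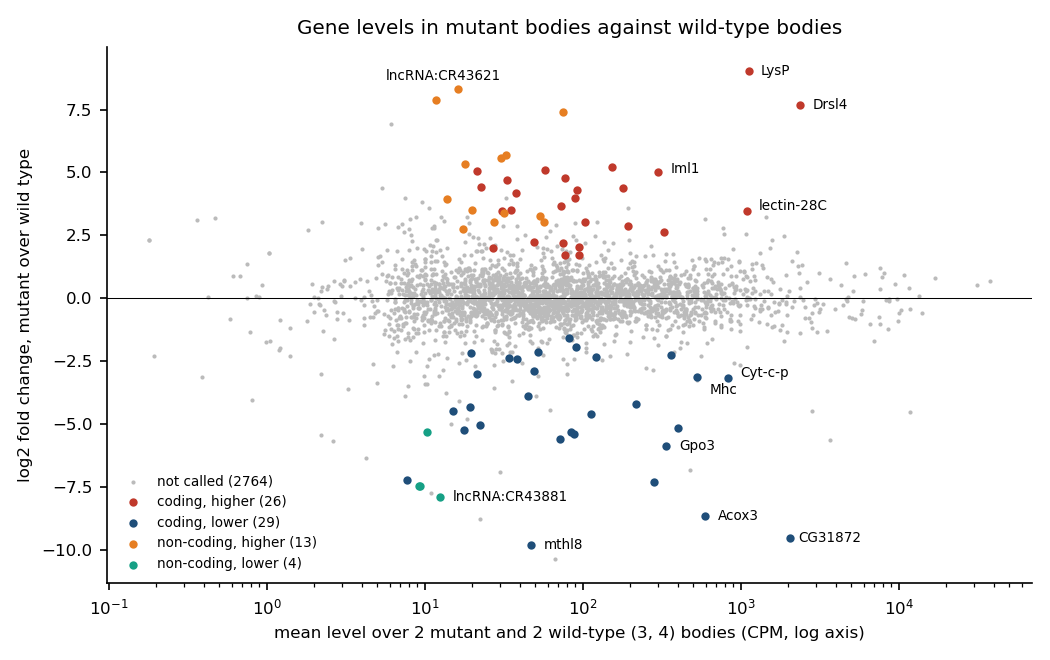
Each point is one of the 2836 genes tested, with its mean level over the 2 mutant bodies and wild-type bodies 3 and 4 (CPM, log axis) and its log2 fold change, mutant over wild type. The 39 higher and 33 lower called genes are coloured by coding and non-coding class, and 13 of the 39 higher ones are non-coding.

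These counts moved with the libraries in the fit. With the 4 tested body libraries alone, without the heads, 31 genes were called, 18 higher and 13 lower, and all 31 were among the 72. Without mutant body 1 the count was 51, and 33 of the 72 were among them. Without mutant body 2 it was 898, with 71 of the 72. Without wild-type body 3 it was 5, and these were Acox3, CG1275, CG31872, Gpo3 and LysP. Without wild-type body 4 it was 7, among them the same 5 and Drsl4. In these fits the remaining library of the reduced arm is assumed to vary like the other groups. All 72 kept their sign in each of the 4 fits. With size factors of the DESeq2 kind (RLE) in place of TMM, 60 genes were called, 39 higher and 21 lower. The DESeq2 Wald test called 214, 115 higher and 99 lower.

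Of the immune effectors, LysP, Drsl4 and Drsl5 rose. LysP, a lysozyme that digests bacterial cell walls, had 2495 and 1983 CPM in the mutant bodies and 1.69 and 7.0 CPM in wild-type bodies 3 and 4 (log2 fold change 9.02, SE 0.78, edgeR adjusted p = 0.00207). Its outside values were 11.1 and 8.11 CPM, in wild-type bodies 1 and 2. All 4 wild-type bodies were thus far below both mutant bodies. Drsl4, a Drosomycin-like peptide gene of the antifungal Drosomycin family, had 6139 and 3317 CPM in the mutant bodies and 25.3 and 23.3 CPM in wild-type bodies 3 and 4 (7.66, SE 0.64, adjusted p = 0.00207). Outside, Drsl4 had 141 and 2.70 CPM. Drsl5, of the same family, had 194 and 141 CPM in the mutant bodies and 8.43 and 13.2 CPM in wild-type bodies 3 and 4 (3.99, adjusted p = 0.00645). At Drsl5 wild-type body 2 reached 146 CPM, level with the mutant, and wild-type body 1 had 0.857 CPM. TotM, a Turandot stress gene, had 32.8 and 114 CPM in the mutant bodies and 11 and 14.0 CPM in wild-type bodies 3 and 4, and did not pass (2.53, adjusted p = 0.0557).

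LysB, another lysozyme, fell, with 2.81 and 5.05 CPM in the mutant bodies and 284 and 60.7 CPM in wild-type bodies 3 and 4 (log2 fold change −5.41, SE 0.98, edgeR adjusted p = 0.0404). LysB has near-identical copies beside it, and the sources used here do not state how reads shared between copies were placed, so its count is uncertain. Of 11 immune effectors tested, 3 rose, 1 fell and 7 did not pass, with a median log2 fold change of 0.55. That median was 0.04 without mutant body 1 and −0.04 without mutant body 2, with 4 and 7 calls. Of 20 genes of the Toll pathway and haemocytes, the blood cells of the fly, none was called by edgeR (median −0.28), with 5 at an unadjusted p under 0.05 and 3 called by DESeq2, and 6 were called by edgeR without mutant body 2. All of those 5 were lower in the mutant. Among them NimC3, a Nimrod family gene, had 0 and 2.17 CPM in the mutant bodies and 64.9 and 7.0 CPM in wild-type bodies 3 and 4, a ratio of 28.4-fold lower (95% counting interval 9.41 to 141). Col4a1 and vkg, the collagen IV chains made by fat body and haemocytes, had log2 fold changes of −2.65 and −1.99 (adjusted p = 0.121 and 0.0619).

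The C-type lectins, sugar-binding secreted proteins, followed. lectin-28C had 2425 and 1569 CPM in the mutant bodies and 172 and 201 CPM in wild-type bodies 3 and 4 (3.48, SE 0.46, edgeR adjusted p = 0.0121), and the outside bodies had 266 and 197 CPM. It was the call among 9 lectins tested, whose median was 0.23, and −0.03 with 2 calls without mutant body 2. lectin-30A had 2746 and 2426 CPM in the mutant bodies and 226 and 352 CPM in wild-type bodies 3 and 4 without passing (3.21, adjusted p = 0.0861). lectin-37Da had 3045 and 3993 CPM in the mutant bodies, against 129 and 1938 CPM in wild-type bodies 3 and 4, so wild-type bodies 3 and 4 differed widely (1.83, adjusted p = 0.376). Among 8 serpins, inhibitors of serine proteases, Spn28Da rose, with 98.3 and 125 CPM in the mutant bodies and 3.37 and 3.11 CPM in wild-type bodies 3 and 4 (5.08, SE 0.50, adjusted p = 0.00625). The outside bodies had 0 and 8.11 CPM. The serpin median was −0.23, and 3 serpins were called without mutant body 2.

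**Figure D2:**
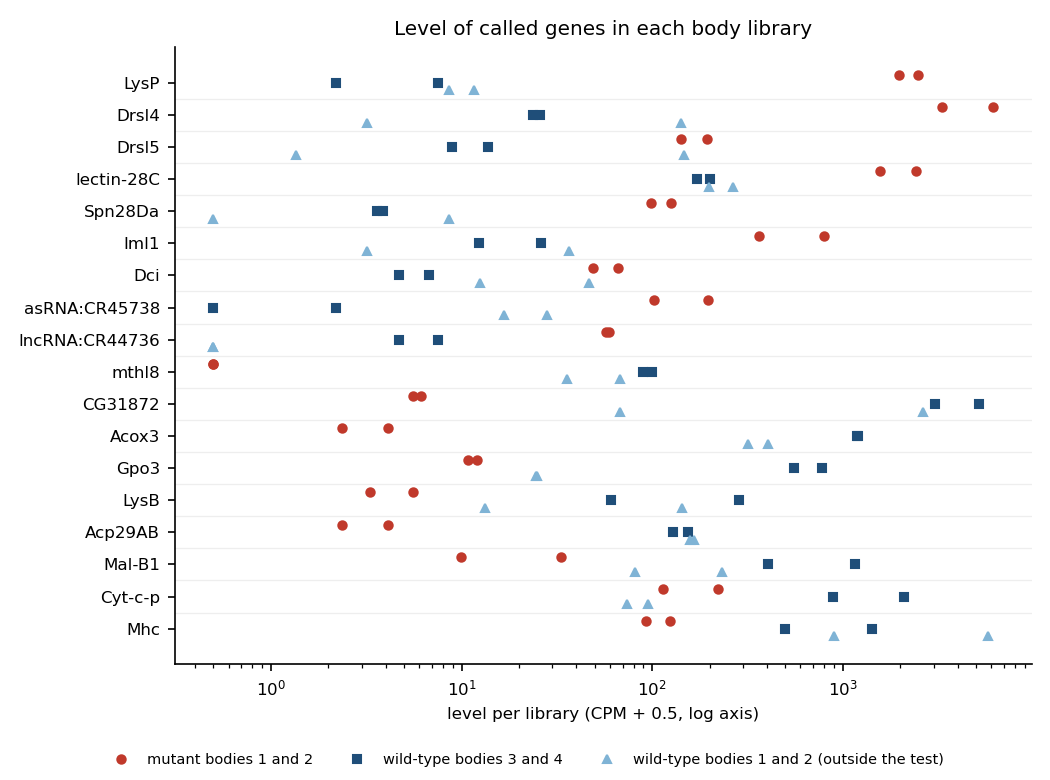
Level of 18 called genes in each body library, as CPM with 0.5 added on a log axis, for the 2 mutant bodies, wild-type bodies 3 and 4, and wild-type bodies 1 and 2 outside the test. At LysP, Drsl4, lectin-28C and Iml1 the mutant bodies lie above all 4 wild-type bodies, and at Cyt-c-p wild-type bodies 1 and 2 lie below the mutant bodies.

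Genes of fat and energy metabolism held calls in both directions. Acox3, named as an acyl-CoA oxidase of peroxisomal fatty acid breakdown, had 1.87 and 3.61 CPM in the mutant bodies, against 1199 and 1181 CPM in wild-type bodies 3 and 4 (log2 fold change −8.67, SE 0.51, edgeR adjusted p = 4.39e-04). Outside, Acox3 had 404 and 316 CPM, also far above the mutant. Gpo3, a glycerophosphate oxidase, had 10.3 and 11.6 CPM in the mutant bodies and 557 and 777 CPM in wild-type bodies 3 and 4 (−5.89, adjusted p = 0.00207). Its outside values, 24 and 24.3 CPM, were nearer to the mutant. Dci, named as an isomerase of fatty acid oxidation, moved the other way (3.47, adjusted p = 0.0121). It had 65.5 and 48.4 CPM in the mutant bodies and 4.21 and 6.22 CPM in wild-type bodies 3 and 4. Outside, Dci had 11.996 CPM in wild-type body 1, between the groups, and 45.97 CPM in wild-type body 2, close to mutant body 2.

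Of 15 fat body and lipid genes tested, 1 rose, 2 fell and 12 did not pass, and the median was −1.50. It was −1.22 with 3 calls without mutant body 1 and −2.19 with 9 calls without mutant body 2. Both mutant bodies lay below wild-type bodies 3 and 4 at 12 of the 15, and at 624 of all 2836 genes tested (22.0%). The fat body is the fly's organ of storage and secretion, and its markers were lower in the mutant bodies than in wild-type bodies 3 and 4. In bulk RNA, fewer cells of a type and less RNA per cell cannot be told apart. Lsp1beta, a storage protein, had 136 and 158 CPM in the mutant bodies and 13827 and 602 CPM in wild-type bodies 3 and 4, without passing (edgeR adjusted p = 0.0854). Outside, Lsp1beta had 70.3 and 259.6 CPM, on either side of the mutant bodies, so the wild-type libraries differed widely among themselves. Adh, alcohol dehydrogenase, had 752 and 1011 CPM in the mutant bodies and 3306 and 2478 CPM in wild-type bodies 3 and 4 (edgeR adjusted p = 0.0603), with 7901 and 1303 CPM outside. The 3 fat body markers summed to 921 and 1264 CPM in the mutant bodies, 17297 and 3278 CPM in wild-type bodies 3 and 4, and 8689 and 2055 CPM in wild-type bodies 1 and 2. None of these markers was at 0 in a body library, and their part in the values of other genes was not tested.

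Muscle and respiratory genes held 1 call each, both lower. Mhc, the muscle myosin heavy chain, had 92.7 and 123 CPM in the mutant bodies and 1420.0 and 495 CPM in wild-type bodies 3 and 4 (log2 fold change −3.15, SE 0.57, edgeR adjusted p = 0.0404). Outside, Mhc had 5745 and 903 CPM. Mhc was the 1 call among 4 muscle genes (median −1.30), of which 0 were called without mutant body 1 and 3 without mutant body 2. sls, the fly titin, had 558 and 554 CPM in the mutant bodies and 1605 and 1222 CPM in wild-type bodies 3 and 4 (−1.32, adjusted p = 0.0969), and TpnC25D, a troponin C, had 52.4 and 186 CPM in the mutant bodies and 332 and 236 CPM in wild-type bodies 3 and 4 (−1.29, adjusted p = 0.292).

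Cyt-c-p, cytochrome c of the respiratory chain, had 113 and 222 CPM in the mutant bodies and 2088 and 883 CPM in wild-type bodies 3 and 4 (log2 fold change −3.17, SE 0.55, edgeR adjusted p = 0.0388). Wild-type bodies 1 and 2 held 94.3 and 73.0 CPM, below the mutant, so the direction turned with them as reference (0.74). It was the 1 call among 18 nuclear genes of the respiratory chain, whose median was −0.50, and the calls were 0 without mutant body 1 and 11 without mutant body 2. ND-30 and ND-ACP, subunits of complex I, had −1.35 and −1.17 (adjusted p = 0.290 and 0.175), and both turned positive against wild-type bodies 1 and 2 (0.41 and 0.21). The share of mitochondrial reads was low in mutant body 1 (4.50%) but not in mutant body 2 (22.0%), and its part in these values was not tested. None of 21 cytosolic ribosomal protein genes was called by edgeR, none had an unadjusted p under 0.05, and DESeq2 called 0. Without mutant body 2, however, edgeR called 14 of the 21. Their median was −0.04, 0.05 with RLE scaling, −0.30 without mutant body 1 and −0.09 without mutant body 2.

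Reproductive and gut genes gave 1 call each. Acp29AB, a seminal fluid protein of the accessory gland with a lectin domain, had 1.87 and 3.61 CPM in the mutant bodies and 154 and 128 CPM in wild-type bodies 3 and 4 (−5.59, SE 0.56, edgeR adjusted p = 0.00645), and the outside bodies, at 157 and 165 CPM, stood with wild type. It was the call among 29 male germline and accessory gland genes tested, whose median was −0.23, with 2 calls without mutant body 1 and 7 without mutant body 2. Sfp24Bc, another seminal fluid protein, had 14.0 and 10.8 CPM in the mutant bodies and 62.4 and 50.6 CPM in wild-type bodies 3 and 4 without passing (−2.15, adjusted p = 0.0854). Mal-B1, a maltase, had 32.8 and 9.38 CPM in the mutant bodies and 1158 and 405 CPM in wild-type bodies 3 and 4 (−5.18, adjusted p = 0.0261). Its neighbour Mal-B2 had 2146 and 856 CPM in the mutant bodies and 839 and 1077 CPM in wild-type bodies 3 and 4, overlapping (0.74, adjusted p = 0.503), and its sign turned without mutant body 1 (−0.25). The median of the 6 gut genes was 0.06, and −0.13 without mutant body 1, and 3 were called without mutant body 2.

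Single genes of receptor, signalling and detoxification lists were called. mthl8, a Methuselah-like receptor, had no reads in either mutant body and 89.3 and 98.8 CPM in wild-type bodies 3 and 4, at least 76.9-fold lower when the mutant bodies together are set at 3 counts (edgeR adjusted p = 0.00459). The outside bodies had 67.7 and 35.2 CPM, so all 4 wild-type bodies had reads. It was the call among 6 Methuselah receptors, whose median was −0.20, and 0.05 without mutant body 1. Iml1, a subunit of the complex that lowers TOR signalling when amino acids are scarce, had 795 and 365 CPM in the mutant bodies and 11.8 and 25.7 CPM in wild-type bodies 3 and 4 (5.03, SE 0.62, adjusted p = 0.00875), and 36.0 and 2.70 CPM outside. It was the call among 5 insulin and TOR genes, whose median was 0.16, and 0.48 without mutant body 1 and −0.67 with 3 calls without mutant body 2. Of 19 detoxification genes 1 rose and 1 fell, with a median of 0.47. That median was 0.00 with no call without mutant body 1 and −0.01 with 9 calls without mutant body 2. Cyp6a16, a cytochrome P450, had 66.5 and 16.6 CPM in the mutant bodies and 1.69 and 0.778 CPM in wild-type bodies 3 and 4, a ratio of 31.6-fold (counting interval 10.5 to 156). Cyp4d21, another P450, had 30.9 and 47.6 CPM in the mutant bodies and 148 and 259 CPM in wild-type bodies 3 and 4 (−2.35, adjusted p = 0.0436).

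The remaining genes that the rule for named genes picked have roles left out here where they are not known with confidence. CG31642 had 360.5 and 236 CPM in the mutant bodies and 10.1 and 6.22 CPM in wild-type bodies 3 and 4 (5.23, edgeR adjusted p = 0.0167). CG31872 had 5.62 and 5.05 CPM in the mutant bodies and 3062 and 5190.2 CPM in wild-type bodies 3 and 4 (−9.53, SE 0.99, adjusted p = 0.00459), and the outside bodies split, with 2631 and 67.6 CPM. Vajk3 had 0 and 6.5 CPM in the mutant bodies and 743 and 386 CPM in wild-type bodies 3 and 4 (−7.33, adjusted p = 0.0279). CG1275 had 1.87 and 5.77 CPM in the mutant bodies and 183 and 147 CPM in wild-type bodies 3 and 4 (−5.34, adjusted p = 0.00208). The outside bodies had 2.57 and 0 CPM at CG1275, so they stood with the mutant and the sign turned with them as reference (0.83). CG43149 had no reads in the mutant bodies and 18.5 and 12.4 CPM in wild-type bodies 3 and 4, at least 12.7-fold lower (adjusted p = 0.0410).

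A few called genes of known role were outside that rule and were chosen after their values were seen. Ts, thymidylate synthase, had a log2 fold change of 4.76 (edgeR adjusted p = 0.00536), robo3, an axon guidance receptor, 4.41 (0.0404) and smo, the Hedgehog pathway transducer, 1.73 (0.0404). smo had 147.0 and 144 CPM in the mutant bodies and 43.8 and 45.9 CPM in wild-type bodies 3 and 4, with 29.1 and 18.9 CPM outside. obst-B, a chitin-binding protein, had −4.62 (0.0279), pdm2, a POU transcription factor, −4.33 (0.0462), and Idgf1, a chitinase-like growth factor, −2.13 (0.0398). At pdm2 and Idgf1 the outside bodies stood nearer to the mutant, and the sign turned with them as reference (1.13 and 0.50).

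Non-coding RNAs were called in both directions. Of 267 non-coding genes tested, 13 rose and 4 fell, with a median of 0.50, against 26 rises and 29 falls among 2569 coding genes with a median of −0.04. Of 527 long non-coding RNAs with reads, 190 were tested, of which 10 rose and 4 fell (median 0.58). Of 106 annotated antisense RNAs with reads, 46 were tested, of which 3 rose and none fell (median 0.33). Without mutant body 1 the medians of these lists were 0.31 and 0.25, and the calls 3 and 2. Without mutant body 2 the medians were 0.72 and 0.53, and the calls 63 and 8. A gene with few reads could enter the test through a single group alone. The part of this entry rule in the medians, or in the contrast with coding genes, was not tested. The functions of the RNAs named here are not known with confidence.

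asRNA:CR45738 had 197 and 102 CPM in the mutant bodies and 1.69 and 0 CPM in wild-type bodies 3 and 4, a ratio of 177-fold with a counting interval of 48.6 to 1466. The outside bodies had 27.4 and 16.2 CPM, between the groups. lncRNA:CR43621 had 40.3 and 24.5 CPM in the mutant bodies and no reads in any of the 4 wild-type bodies, at least 26.7-fold higher than wild-type bodies 3 and 4. lncRNA:CR43988 had 23.4 and 23.8 CPM in the mutant bodies and no reads in wild-type bodies 3 and 4, at least 19.5-fold higher. asRNA:CR44897 (49.7-fold, interval 16.7 to 244), lncRNA:CR44808 (46.7-fold, 15.6 to 229) and lncRNA:CR44485 (41.8-fold, 11.2 to 351) were at 3 reads or fewer in wild-type bodies 3 and 4 together. lncRNA:CR44736 had 59.0 and 57.0 CPM in the mutant bodies, 4.21 and 7.0 CPM in wild-type bodies 3 and 4, and none outside (log2 fold change 3.38, edgeR adjusted p = 0.0222). lncRNA:CR44979 (3.02, adjusted p = 0.0243) and asRNA:CR44992 (2.76, adjusted p = 0.0436) rose as well.

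The lower RNAs had few reads. lncRNA:CR43881 had none in the mutant bodies and 24.4 and 25.7 CPM in wild-type bodies 3 and 4, at least 20.5-fold lower. lncRNA:CR45346 (at least 15.2-fold lower) and lncRNA:CR44490 (at least 15.1-fold lower) also had none in the mutant. lncRNA:CR44490 had 2494 and 4118 CPM in wild-type bodies 1 and 2, against 16 and 21.0 CPM in wild-type bodies 3 and 4, so the wild-type libraries differed among themselves by far more than the floor.

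The remaining lists held no call by edgeR. Among 6 genes of Pol II and elongation, Ctr9, a subunit of the Paf1 complex, had −1.11 (adjusted p = 0.193) and Polr2C, a Pol II subunit, −0.63 (0.354), with a list median of −0.30 and 1 gene at an unadjusted p under 0.05. Among 4 cleavage and polyadenylation genes, Clp, a cleavage factor, had 160 and 58.5 CPM in the mutant bodies and 34.6 and 51.3 CPM in wild-type bodies 3 and 4 (1.43, adjusted p = 0.227), with a median of 0.10 and 1 gene at that p. Genes at an unadjusted p under 0.05 numbered 1 of 5 heat and stress genes (median 0.54), 0 of 6 ovary and eggshell genes (0.29), 2 of 12 neuronal genes (−0.38), 3 of 8 photoreceptor genes (0.15) and 1 of 2 odorant-binding proteins (1.82). Without mutant body 1 the photoreceptor median was −0.97, of the other sign, and that of heat and stress 0.07, with 1 heat and stress gene called. Without mutant body 2 edgeR called 3 photoreceptor genes, 2 heat and stress genes, 1 neuronal gene and 1 cleavage and polyadenylation gene. DESeq2 called 1 heat and stress gene, 1 photoreceptor gene and none of the other lists in this paragraph.

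Wild-type bodies 1 and 2 lay nearer to wild-type bodies 3 and 4 at 58 of the 72 called genes and nearer to the mutant at 14, of which 4 were higher and 10 lower in the mutant. The called genes were picked by their gap between the tested groups, and the matching share over all genes tested was not measured. The same holds for the like counts of called sites, 3'UTR genes and site pairs below. With wild-type bodies 1 and 2 as the only reference, 647 of 2815 genes were called, and 47 of the 72 were among them. That contrast sets mutant and wild type across the sample ranges. The genotype, the range and the higher Arr1, ninaC and Syt1 levels of those libraries cannot be told apart in it.

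To look beyond the named regions, every poly(A) site was tested on its own, on all chromosome arms. Of 20954 sites tested, 1049 were called (5.01%), 459 higher (2.19%) and 590 lower (2.82%), 4075 had an unadjusted p under 0.05 (19.4%), and 759 of the 1049 lay outside the named regions. The DESeq2 Wald test gave 739 higher and 620 lower, and RLE scaling 539 higher and 507 lower. RLE scaling moved the median of all sites to 0.14, against −0.02 with TMM. Without mutant body 1 the count was 1154, with 654 higher and 500 lower, so the larger side changed. Without wild-type body 3 it was 39, without wild-type body 4 it was 103 and without mutant body 2 it was 7138. Wild-type bodies 1 and 2 were nearer to the mutant at 326 of the 1049. The called sites included 213 with no reads in the mutant bodies and 118 with no reads in wild-type bodies 3 and 4.

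By arm, the share of sites called was 5.92% of 3868 sites on 2L, 5.34% of 4217 on 2R, 5.99% of 3975 on 3L and 4.90% of 5118 on 3R. On X 34 sites rose and 55 fell of 3199 (2.78%), and on chromosome 4 none rose and 7 fell of 349 (2.01%). The median of chromosome 4 was −0.18, and 0.00 without mutant body 1. The difference between arms was not tested.

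The 5 highest and 5 lowest called sites outside the named regions are given in coordinates of build BDGP5. Genes at these places were not named here. The site at 9209171 on X, plus strand, had 355 and 105 reads in the mutant bodies and none in any of the 4 wild-type bodies. The site at 14377549 on 3L, minus strand, had 134 and 161 reads in the mutant bodies, none in wild-type bodies 3 and 4, and 0 and 3 reads outside. The site at 20026968 on 3R, minus strand, had 898 and 399 reads in the mutant bodies and 1 and 0 reads in wild-type bodies 3 and 4. Those at 10412933 on 3R, minus strand, and 20057311 on 3L, plus strand, had 81 and 135 reads and 120 and 54 reads in the mutant bodies, and none in wild-type bodies 3 and 4. All 5 had at most 3 reads in either outside body.

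Among the lowest, the site at 16842849 on 3R, plus strand, had no reads in the mutant bodies. It had 685 and 110 reads in wild-type bodies 3 and 4, and 25 and 0 outside. The site at 17113520 on X, plus strand, had none in the mutant bodies, 403 and 85 reads in wild-type bodies 3 and 4, and 2858 and 118 reads outside. At 17595084 on 3R, plus strand, there were none in the mutant bodies, 146 and 273 reads in wild-type bodies 3 and 4, and 6 and 3 outside. At 10788273 on 3L, plus strand, the wild-type bodies 3 and 4 had 153 and 209 reads and at 16271283 on 3L, plus strand, 264 and 114 reads, with none in the mutant bodies. Outside, these sites had 27 and 0 reads and 11 and 0 reads. In CPM the outside bodies were nearer to the mutant at all of these lowest sites except the one on X.

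Within the named regions the sites were grouped by what the annotation holds there. Sites antisense to a gene rose in 17 and fell in 8 of 162 cases, 15.4% called, with a median log2 fold change of 1.11. The median was 0.80 without mutant body 1 and 1.38 without mutant body 2. Sites of non-coding genes rose in 24 and fell in 9 of 247 cases (median 0.48, 13.4% called), and sites in introns upstream of the 3'UTR in 19 and 7 of 210 (0.14, 12.4%). Intergenic sites rose in 6 and fell in 7 of 74 (0.26, 17.6%), and sites in upstream exons rose in 10 and fell in 13 of 172 (0.00, 13.4%). Sites in 3'UTRs rose in 62 and fell in 103 of 3738 cases (median −0.10, 4.41% called). A site could enter the test through reads in a single group alone. At kinds of site with few reads, the medians and shares called may partly reflect this entry rule, which was not tested.

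Antisense reads made up 0.861% and 0.731% of the reads of the named regions in the mutant bodies, against 0.454% and 0.513% in wild-type bodies 3 and 4 and 0.487% and 0.574% in wild-type bodies 1 and 2. Both mutant bodies were above all 4 wild-type bodies. The difference of 0.313 points had an exact permutation p of 0.333 (two-sided, n = 2 each), the smallest this design allows. Without the 10 most used antisense sites the shares were 0.746% and 0.581% in the mutant bodies, against 0.377% and 0.437% in wild-type bodies 3 and 4. Reads were spread over 2297 and 2552 antisense sites in the mutant bodies and over 2010.0 and 2187 in wild-type bodies 3 and 4. Intergenic reads took 0.493% and 0.433% in the mutant bodies, 0.325% and 0.329% in wild-type bodies 3 and 4, and 0.208% and 0.289% outside (exact p = 0.333). In heads of the same range the antisense share was 0.303% and 0.304% in the mutant and 0.340% and 0.330% in wild type, so there the mutant was lower.

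**Figure D3:**
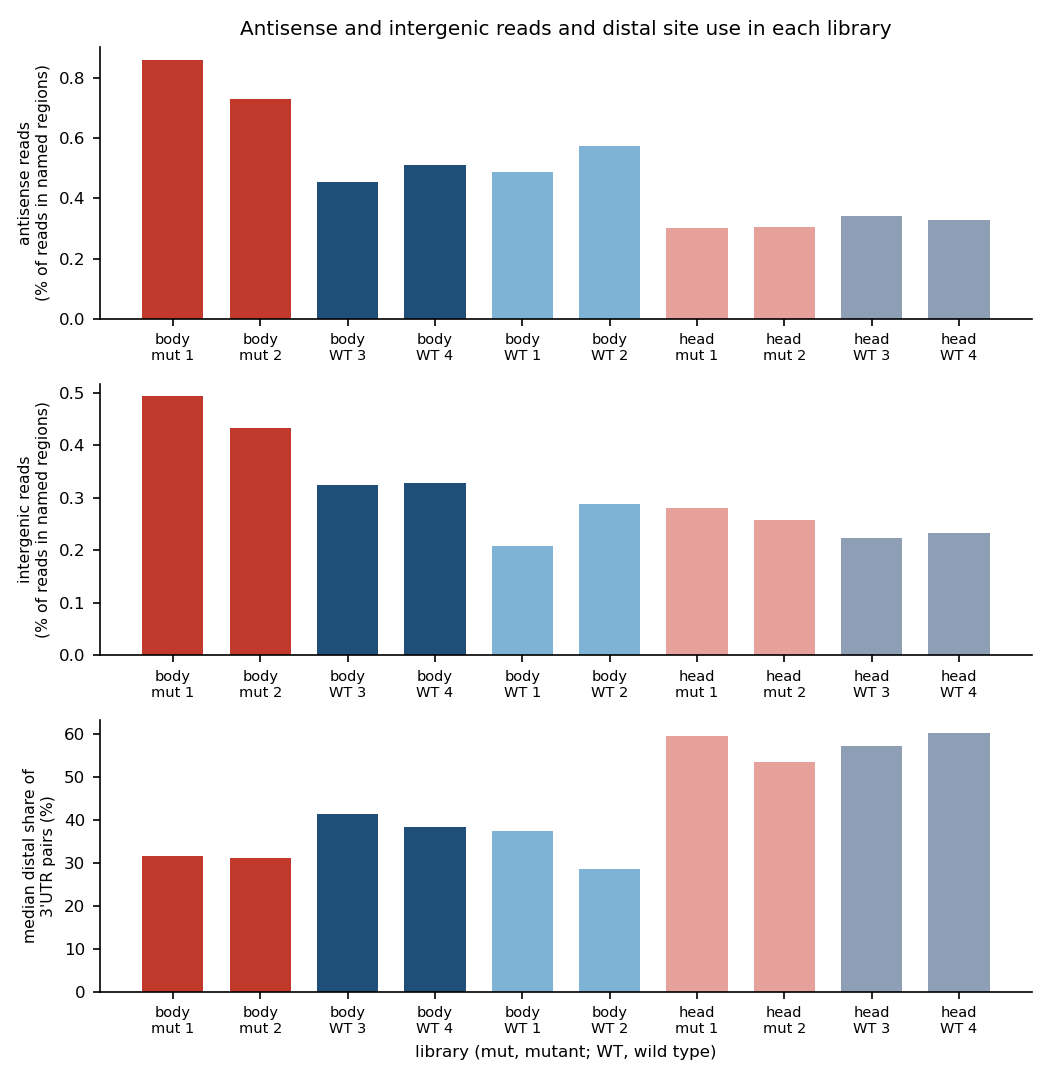
Bars give, for each library, the antisense and the intergenic share of reads in the named regions and the median share of reads at the distal of the 2 most used 3'UTR sites, in percent. Body libraries come before head libraries. The antisense share is 0.861% and 0.731% in the mutant bodies and at most 0.574% in any other library shown, and the median distal share is 31.6% and 31.1% in the mutant bodies.

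The antisense sites with the smallest p, chosen after their values were seen, had few reads each. Opposite Tmep, at 1574752 on 3L, minus strand, there were 226 and 188 reads in the mutant bodies, 8 and 4 in wild-type bodies 3 and 4, and 4 and 1 outside (log2 fold change 5.2, edgeR adjusted p = 0.0130). Opposite E2f2, a cell cycle transcription factor, at 21155497 on 2L, plus strand, there were 57 and 61 reads in the mutant bodies, against 3 and 5 in wild-type bodies 3 and 4. Opposite Fife, at 2708709 on 3L, plus strand, the mutant bodies had 33 and 42 reads and wild-type bodies 3 and 4 none. The groups did not overlap at these 3 sites, which were picked by their p in this same contrast.

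To ask whether 3'UTR length differs, the 2 most used 3'UTR sites of each gene were taken, and reads at the farther (distal) one were set against reads at the nearer (proximal) one. Genes moved in both directions, 23 to the proximal and 16 to the distal site. Of 785 genes, 39 were called (4.97%), 23 toward the proximal site (2.93%) and 16 toward the distal (2.04%), and 152 had an unadjusted p under 0.05 (19.4%). The log2 change in this ratio was below 0 at 468 genes and above 0 at 317, with a median of −0.27. Without mutant body 1 the count was 76 and the median −0.30. Without mutant body 2 there were 254 calls, and without wild-type body 3 or 4 there were 25 and 22. In those 4 fits the proximal direction held the larger number of calls. Against wild-type bodies 1 and 2 the median was 0.00, with 112 genes toward the proximal and 74 toward the distal site.

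The median distal share over these genes was 31.6% and 31.1% in the mutant bodies, 41.5% and 38.5% in wild-type bodies 3 and 4, and 37.4% and 28.6% in wild-type bodies 1 and 2. The mutant bodies lay below wild-type bodies 3 and 4 but not below wild-type body 2. The difference of −8.63 points had an exact permutation p of 0.333 (two-sided, n = 2 each), the smallest possible, and ranged from −10.2 to −7.12 points as each library was left out. Grouped into 5 sets by the distance between sites, the medians were −0.15 for 29 to 103 nt, −0.21 for 104 to 164 nt, −0.39 for 166 to 278 nt, −0.31 for 279 to 510 nt and −0.19 for 518 to 9298 nt. In the set with the farthest sites 5 genes were called toward the distal site and 1 toward the proximal, while in the nearest set the calls were 2 and 6. This trend was not tested.

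Of the genes named by rule, 8 moved to the proximal site. CG14931, with sites at 11789477 and 11789589 on 2L, used the distal site for none of 29 and 71 reads in the mutant bodies (upper limit 3.00%) and for 86.7% and 81.5% in wild-type bodies 3 and 4 (edgeR adjusted p = 2.26e-04). Its outside bodies split, with none of 9 reads and 75.0% of 8 reads. CG9259 used it for none of 272 and 84 reads in the mutant bodies (limit 0.843%) and for 72.7% and 45.5% in wild-type bodies 3 and 4, with 84.5% and 94.3% outside. CG6729 used it for none of 47 and 40 reads in the mutant bodies (limit 3.45%), against 60.0% and 80.8% in wild-type bodies 3 and 4 and 61.5% and 50% outside. The mutant bodies had no distal read at these 3 genes, and the outside bodies of CG9259 and CG6729 stood with wild type.

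strat, with sites 238 nt apart, used the distal site for 8.89% and 13.6% in the mutant bodies, against 93.9% and 96.8% in wild-type bodies 3 and 4 (log2 change −7.14, SE 0.80). CG31717 used it for 0.228% and 0.272% in the mutant bodies, 60.0% and 38.6% in wild-type bodies 3 and 4, and 71.0% and 20% outside (−8.47, SE 0.77). CG31740 used it for none of 289 and 308 reads in the mutant bodies (limit 0.503%), against 18.9% and 20.2% in wild-type bodies 3 and 4. CG43089 had 1.2% and 4.84% in the mutant bodies against 69.6% and 68.3% in wild-type bodies 3 and 4, and CG11912 had 0.645% and 0.356% against 25.4% and 25.7%. For CG43089 and CG11912 the outside bodies had no distal read, among 15 reads of wild-type body 1 at CG43089 and among 17 and 39 reads at CG11912, and the sign turned with them as reference (1.05 and 0.43). The direction of strat turned when positions under 5 pooled reads were left out before joining (7.09), and the cause was not tested.

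Other genes moved to the distal site. jhamt, the methyltransferase of juvenile hormone synthesis, used it for 84.6% and 94.1% in the mutant bodies, against 1.54% and 2.11% in wild-type bodies 3 and 4 (log2 change 8.49, SE 0.83), its sites lying at 16366894 and 16367098 on 2L. Wild-type body 1 had 8.33% of 12 reads there and wild-type body 2 all of its 2 reads. Shaw, a voltage-gated potassium channel, had 83.3% and 89.8% in the mutant bodies, 3.66% and 7.07% in wild-type bodies 3 and 4, and 6.10% and 16.7% outside (6.85, SE 0.89). phr6-4, the photolyase that repairs ultraviolet lesions, had 56.4% and 72.0% in the mutant bodies and no distal read among 42 and 88 reads in wild-type bodies 3 and 4 (limit 2.31%) nor among 51 and 9 reads outside. These 3 genes had wild-type bodies 3 and 4 below 8% and both mutant bodies above 56%.

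CG13917, with sites 987 nt apart, used the distal site for all 68 and 241 reads in the mutant bodies (limit for the proximal site 0.971%) and for 31.8% and 35.9% in wild-type bodies 3 and 4. CG12105 used it for all 20 and 32 reads in the mutant bodies (limit 5.77%) and for 12.3% and 31.7% in wild-type bodies 3 and 4. CG13989 used it for all 59 and 469 reads in the mutant bodies (limit 0.568%) and for 61.3% and 67.8% in wild-type bodies 3 and 4. Outside, CG12105 had 60.0% and 58.3%, between the groups. CG13989 had 100% of 190 reads and 82.4% of 51 reads outside, nearer to the mutant. mxt, a partner of the translation factor eIF4E, had 99.8% and 99.1% in the mutant bodies, against 63.2% and 68.7% in wild-type bodies 3 and 4, and CG5177 had 98.8% and 98.8% against 68.7% and 80.6%. In the outside bodies CG13917, mxt and CG5177 used the distal site for all reads, as the mutant nearly did, so the sign of mxt and CG5177 turned with them as reference (−1.60 and −5.80). Over all 39 called genes wild-type bodies 1 and 2 were nearer to the mutant at 16 and to wild-type bodies 3 and 4 at 23.

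**Figure D4:**
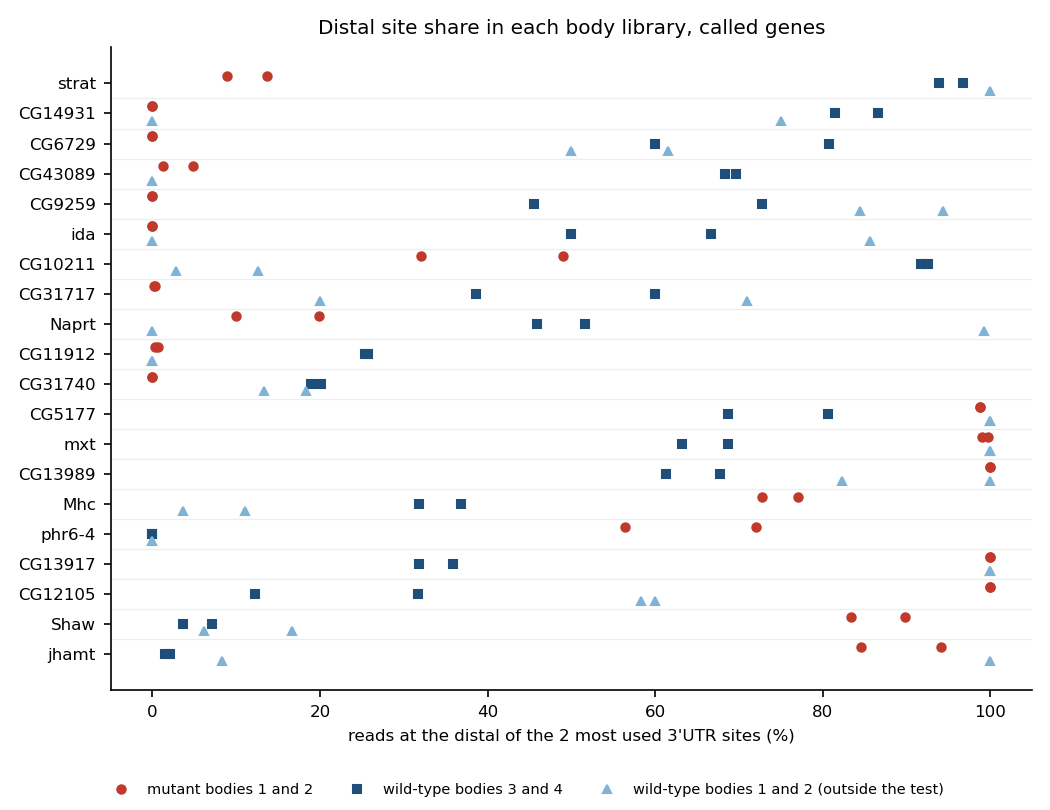
Share of reads at the distal of the 2 most used 3'UTR sites (percent) for 20 called genes, 1 point per body library, ordered from the largest shift to the proximal to the largest shift to the distal site. Mutant bodies and wild-type bodies 3 and 4 do not overlap at any gene shown, but the genes were picked by their calls in this same contrast. Wild-type bodies 1 and 2 stand with the mutant at CG5177, mxt and CG13917 and with wild type at CG31740, Shaw and phr6-4.

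Sites upstream of the 3'UTR were compared with 3'UTR sites of the same gene. Of 808 genes, 13 were called (1.61%), 7 toward upstream sites (0.866%) and 6 away from them (0.743%), with 111 at an unadjusted p under 0.05 (13.7%). The median log2 change was 0.43, but −0.10 without mutant body 1 and 0.75 without mutant body 2, so its direction rested on 1 library. The counts without these libraries were 53 and 170, and 7 without wild-type body 3. Coding reads at upstream introns were 1.43% and 1.53% in the mutant bodies, 1.28% and 1.31% in wild-type bodies 3 and 4, and 2.27% and 3.39% in wild-type bodies 1 and 2. Upstream exons took 1.06% and 0.885% in the mutant bodies, against 1.15% and 1.10% in wild-type bodies 3 and 4.

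mRpL51, a mitochondrial ribosomal protein, used an upstream exonic site at 8517368 on 2L for 89.6% and 57.7% of reads in the mutant bodies and for none of 48 and 42 reads in wild-type bodies 3 and 4 (limit 3.33%, edgeR adjusted p = 0.00149). The gene lies on the minus strand from 8517380 to 8516753, so this site is close to its 5' end. Whether the reads there end an mRpL51 transcript was not tested. CG5968 had 79.2% and 90.3% of reads at upstream sites in the mutant bodies, against 0% and 9.38% in wild-type bodies 3 and 4. Prp4k, a kinase of pre-mRNA splicing, had 50.7% and 53.8% in the mutant bodies, against 0% and 3.45% in wild-type bodies 3 and 4 (5.63, SE 1.03), and 96.0% of its upstream reads were intronic, with the most used site at 210776 on 3L. Cog8, a subunit of a Golgi tethering complex, had 35.5% and 38.8% in the mutant bodies, against 0% and 2.94% in wild-type bodies 3 and 4. Kah, a zinc finger factor, had 11.4% and 12% in the mutant bodies, against 0.478% and 0.794% in wild-type bodies 3 and 4. The outside bodies had at most 6.25% at these 5 genes, as wild type. The other 2 calls in this direction were Ref2, an RNA export factor with 75.9% and 45.6% in the mutant bodies, against 4.35% and 2.33% in wild-type bodies 3 and 4, and Pxn, peroxidasin, with 79.5% and 44.4% against 17.0% and 12.5%.

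In the other direction, Iml1 used upstream sites for 1.88% and 1.19% of reads in the mutant bodies and for 35.7% and 48.5% of only 14 and 33 reads in wild-type bodies 3 and 4 (log2 change −5.59, edgeR adjusted p = 5.48e-04). Wild-type body 1 had 2.38% of 42 reads there, near the mutant, and wild-type body 2 had 1 read. CG18301 had 1.67% and 1.01% in the mutant bodies, 39.2% and 20.1% in wild-type bodies 3 and 4, and 42.9% and 69.0% outside. CG16985 used an upstream exonic site for none of 513 and 654 reads in the mutant bodies (limit 0.257%) and for 5.77% and 5.33% in wild-type bodies 3 and 4, but also for 0.136% and 0% outside. CG34167 had 0.246% and 0.530% in the mutant bodies against 6.88% and 8.01% in wild-type bodies 3 and 4, and lectin-28C 0.463% and 0.690% against 5.39% and 7.75%. The sixth, GABA-B-R3, a metabotropic GABA receptor subunit, had 7.14% and 13.8% in the mutant bodies, against 63.3% and 55.9% in wild-type bodies 3 and 4, with 5.0% and 6.25% outside.

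**Figure D5:**
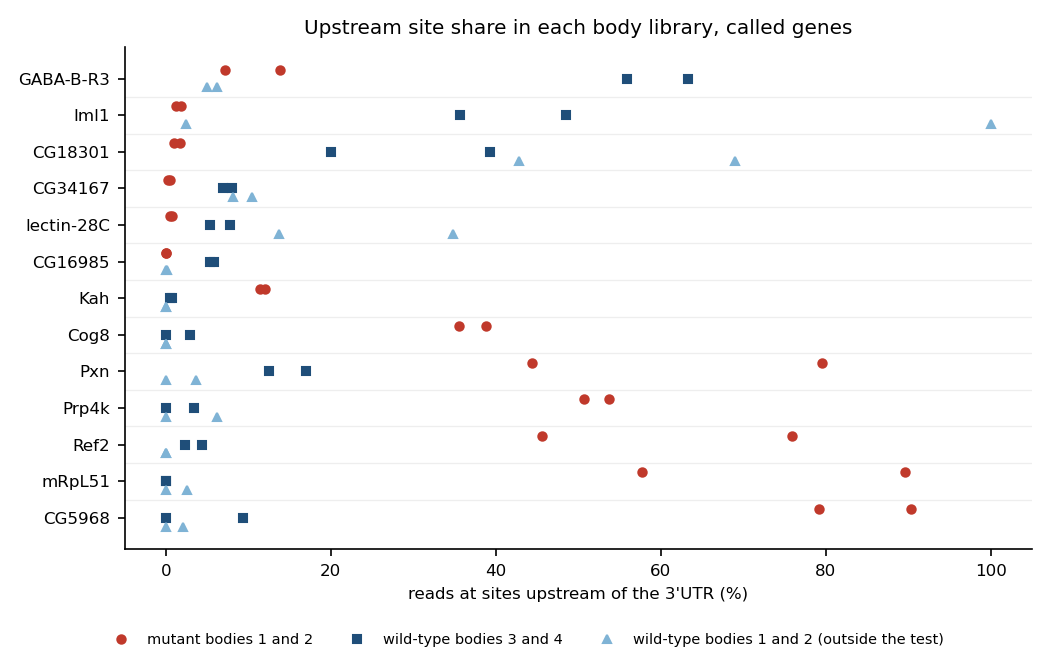
Share of reads at sites upstream of the 3'UTR (percent) for the 13 called genes, 1 point per body library. At mRpL51, CG5968, Prp4k, Cog8 and Kah both mutant bodies lie above all 4 wild-type bodies, and at GABA-B-R3 wild-type bodies 1 and 2 lie with the mutant.

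Some genes differed in level and in site choice. Of the 39 genes called for 3'UTR site choice, 5 were also called for level, as were 15 of all 785 genes tested for it. CG31717 (level log2 fold change 2.87), ida, a subunit of the anaphase-promoting complex (4.16), and Naprt, an enzyme of NAD synthesis (2.62), were higher and moved to the proximal site. Mhc (−3.15) and CG13917 (−2.27) were lower and moved to the distal site. Mhc used the distal of its sites, 532 nt apart, for 72.7% and 77.0% of reads in the mutant bodies, 31.8% and 36.8% in wild-type bodies 3 and 4, and 3.66% and 11% outside. Naprt used it for 19.9% and 10% in the mutant bodies, against 51.6% and 45.9% in wild-type bodies 3 and 4, and ida for none of 95 and 74 reads in the mutant bodies (limit 1.78%) against 50% and 66.7% of 4 and 6 reads. Naprt had 374 and 754 CPM in the mutant bodies and 83.4 and 99.6 CPM in wild-type bodies 3 and 4, but 1242 and 21.6 CPM outside. Of the 13 genes called for upstream use, Iml1, lectin-28C and mRpL51 were also called for level, all 3 higher in the mutant. Of all 808 genes tested for upstream use, 14 were called for level. The upstream share of reads was lower at Iml1 and lectin-28C and higher at mRpL51. Upstream counts of Iml1 overlapped, with 16 and 6 reads for mutant bodies against 5 and 16 for wild-type bodies 3 and 4. Those of lectin-28C also overlapped, at 12 and 15 against 11 and 20 reads. Their 3'UTR reads did not: Iml1 had 833 and 499 against 9 and 17, and lectin-28C 2578 and 2158 against 193 and 238. The lower shares thus came with more 3'UTR reads, without a clear loss of upstream reads. mRpL51 had 126 and 108 CPM in the mutant bodies and 40.5 and 32.7 CPM in wild-type bodies 3 and 4 (1.71, edgeR adjusted p = 0.0462). Most of its mutant reads lay at upstream sites, and its 3'UTR sites alone had 13.1 and 45.5 CPM in the mutant bodies, against 40.5 and 32.7 CPM in wild-type bodies 3 and 4. On 3'UTR reads alone the groups of mRpL51 thus overlapped.

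Pairs of neighbouring sites, 50 to 2000 nt apart on one strand, were tested on all arms without gene names. Of 6571 pairs, 259 were called (3.94%), 118 toward the downstream site (1.80%) and 141 toward the upstream (2.15%), with 979 at an unadjusted p under 0.05 (14.9%) and a median log2 change of −0.09. The count was 607 without mutant body 1, 2280 without mutant body 2, 13 without wild-type body 3 and 17 without wild-type body 4. The outside bodies were nearer to the mutant at 78 of the called pairs and nearer to wild-type bodies 3 and 4 at 178. The share called was 4.99% of 1202 pairs on 2L, 3.85% of 1300 on 2R, 4.49% of 1247 on 3L, 4.32% of 1668 on 3R, 2.03% of 984 on X and 0.769% of 130 on chromosome 4. Of 1465 pairs in the named regions, 1095 lay within 1 gene.

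The pairs below were chosen after their values were seen. They had the smallest p in each direction outside the named regions, with 2R left out. On 2R the top pair toward the upstream site lay at 12631931 and 12631801, minus strand. It used the downstream site for 6.06% and 7.5% in the mutant bodies. Wild-type bodies 3 and 4 had 89.8% and 90.8%, and the outside bodies 85.6% and 80.5%. Toward the downstream site it lay at 2905790 and 2905869, plus strand, with 99.6% and 100% in the mutant bodies. Wild-type bodies 3 and 4 had 57.3% and 48.1%, and the outside bodies 92.0% and 100%. The pair at 24496254 and 24497747 on 3R, plus strand, used the downstream site for 0.472% of 1695 and 0.313% of 1917 reads in the mutant bodies, 63.8% of 152 and 43.8% of 112 in wild-type bodies 3 and 4, and 74.6% and 81.1% outside (−8.22, SE 0.67, edgeR adjusted p = 9.4e-04). The mutant bodies also had more reads at the pair than any wild-type body. At 1649250 and 1648081 on 3R, minus strand, it was none of 66 and 63 reads in the mutant bodies (limit 2.33%) and 70.8% and 77.2% in wild-type bodies 3 and 4, with 100% of 20 reads and 66.7% of 3 reads outside. Toward the downstream site, the pair at 14027987 and 14029856 on 3L, plus strand, had 98.4% of 761 and 98.0% of 931 reads in the mutant bodies and 0% of 14 and 12.5% of 24 reads in wild-type bodies 3 and 4, but 79.7% and 100% outside. The pair at 22076407 and 22076513 on 3L, plus strand, had 100% of 19 and 98.6% of 69 reads in the mutant bodies, against 19.5% and 21.4% in wild-type bodies 3 and 4, while the outside bodies split, with 100% of 19 and 0% of 33 reads.

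The exact place of cleavage within a site was also measured. Over 4507 sites with at least 50 reads in each of the 4 tested libraries within 12 nt of the most used position, the mean position was 0.0730 nt downstream in mutant body 1 and −0.0293 nt in mutant body 2, against 0.0148 and −0.00822 nt in wild-type bodies 3 and 4. The mutant libraries lay on either side of wild type. The mean spread of reads around it was 1.97 and 2.06 nt in the mutant bodies and 2.06 and 2.07 nt in wild-type bodies 3 and 4.

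The same contrast in heads, with mutant heads 1 and 2 and wild-type heads 3 and 4 in the same fit, shows what bodies share with them. In heads 22 of the 2836 genes were called for level (0.776%), and 15 of the 72 genes called in bodies were called there with the same sign and none with the opposite. Among them Drsl4 had a mean of 2268 CPM in mutant heads and 9.41 CPM in wild-type heads, lectin-28C 2031 and 138 CPM, Iml1 916 and 69.1 CPM, and Acox3 7.65 and 786 CPM. mthl8 had no reads in mutant heads and 205 CPM in wild-type heads. The difference between the body and the head change passed for 0 of 2836 genes by edgeR (0%), with 179 at an unadjusted p under 0.05 (6.31%), and for 12 by the DESeq2 Wald test. Without mutant body 2 edgeR called 277.

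For 3'UTR site choice, 42 of 785 genes were called in heads (5.35%), and 20 of the 39 genes called in bodies were called there with the same sign. The median log2 change was −0.02 in heads and −0.27 in bodies, and the median distal share was 59.5% and 53.4% in mutant heads and 57.2% and 60.2% in wild-type heads. The difference between tissues passed at 1 gene of 785 (0.127%), with 38 at an unadjusted p under 0.05 (4.84%). At CG10211 the distal site took 32.0% and 49.0% of reads in the mutant bodies, against 91.7% and 92.6% in wild-type bodies 3 and 4, against 100% and 99.3% in mutant heads and 95.9% and 97.2% in wild-type heads (difference −7.12, edgeR adjusted p = 0.0397). Wild-type bodies 1 and 2 had 12.5% and 2.78% at this gene, below the mutant bodies, and the body change turned with them as reference (3.20). The count of such tissue differences was 0 with limma, 0 without wild-type body 3, wild-type body 4 or any 1 of the 4 heads, 6 without mutant body 1 and 98 without mutant body 2.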

How the data were processed

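Per the labels, the 12 libraries are poly(A) site libraries of adult fly heads and bodies. The deposited files hold, per library, read counts at each poly(A) position and strand, made by the authors. Per the submitters' processing notes reads were aligned with Bowtie2 to BDGP5. No source used here states its version or filters. The fits held 8 libraries (bodies and heads, mutant 1 and 2 and wild-type 3 and 4), which share 1 estimate of the spread. Positions within 24 nt on a strand were joined into 252808 sites. Build BDGP6 annotation matched the files' coordinates only on 2L and the start of 3L, so genes were named there alone, 4347 in all, of which 3771 received a site up to 1000 nt past their end.

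Gene counts, site counts and pairs of site classes were tested with edgeR 4.0.16 (quasi-likelihood, TMM scaling, filterByExpr, Benjamini-Hochberg adjustment) in R 4.3.3. Pairs needed a mean of 20 reads per library and a minor 3'UTR site of at least 5%, or an upstream class of at least 1%. Alternatives used DESeq2 1.42.0 and limma 3.58.1. The scripts were tested on simulated data. Shares over libraries were compared with exact permutation tests. Intervals and floors (3 counts) cover counting error only, and PCR copies are not independent molecules. The members and gene lists were chosen with earlier results of these data known. Genes named by rule were the 12 highest and 12 lowest called genes with 10 CPM in a group and no overlap, up to 3 genes per list by smallest p, up to 8 genes per direction for 3'UTR choice and 5 for upstream use with a change of 5 points, and 5 sites per direction outside the named regions.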

Additional observations from a re-analysis of the deposited data

Results flagged for a closer look

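At 6 genes 1 of the 4 wild-type body libraries stood far from the other 3, by the gap to its nearest neighbour over the whole range (Dixon's 95% critical value for 4 samples was passed). Chance gives about 1 such case in 20 groups, and 45 groups were examined. For lncRNA:CR43988 the ratio was 1, with reads in wild-type body 2 alone. For Drsl4 it was 0.836 and for asRNA:CR44897 0.917, with wild-type body 1 the high library at both. For lncRNA:CR44485 it was 0.908, with wild-type body 2 the low library. That RNA had 3 reads or fewer in wild-type bodies 3 and 4 together, so this gap spans few reads. For the distal share of jhamt it was 0.931, with wild-type body 2 high on 2 reads, and for that of CG14931 it was 0.865, with wild-type body 1 low on 9 reads. In each of the 6 the library that stood apart was wild-type body 1 or 2, outside the main test.

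The 3'UTR site choice of CG10211 differed between tissues, the body change minus the head change being −7.12 on the log2 scale. This call was lost with limma and without wild-type body 3, wild-type body 4 or any 1 of the 4 head libraries, each of which left 0 calls. The antisense share was 0.313 points higher in mutant bodies than in wild-type bodies 3 and 4, while in heads both mutant libraries were below both wild-type libraries. The difference between the tissues in this share was not tested.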

How the results depend on the processing

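With 2 libraries a group, depth and spread limit what can be called. Among the checks of single named results, 1126 kept direction and side of the threshold, 247 no longer passed, 31 newly passed and 25 changed sign. Calls for level were 214 with the DESeq2 Wald test, 31 with the 4 body libraries alone and between 5 and 898 as each library was left out. The range was 22 to 254 for 3'UTR choice, 7 to 170 for upstream use, 39 to 7138 for single sites and 13 to 2280 for neighbouring pairs, and 0 to 277 and 0 to 98 for the tissue differences in level and 3'UTR choice. These leave-one-out fits assume that a lone library varies like the other groups. Upstream calls were 4 with body libraries alone, 37 with positions under 5 reads left out and 21 with limma. Site calls were 1666 with no filter and 686 with body libraries alone. Pair calls were 106 with body libraries alone and 152 at a mean of 50 reads. The tissue difference in level had 12 calls with DESeq2, and that in 3'UTR choice 0 with limma. The mitochondrial share difference was 0.724 points without mutant body 1, and its leave-one-out range was −16.8 to 0.724.

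No paired analysis was possible because mutant replicates 1 and 2 and wild-type replicates 3 and 4 share no number. With all 6 bodies and the replicate number as a block, 372 genes were called for level and 51 for 3'UTR choice. Replicate numbers 3 and 4 each hold 1 body library, which its own block term takes up. That fit therefore sets the mutants against wild-type bodies 1 and 2 only, and is not a check apart from the one with those bodies as reference. In that fit the sign changed at CG1275 (0.71), Cyt-c-p (0.70), Idgf1 (0.52), ND-30 (0.16), ND-ACP (0.53), pdm2 (1.86), CG10211 (3.30), CG11912 (0.37), CG13917 (−0.12), CG5177 (−5.77) and mxt (−1.55). With wild-type bodies 1 and 2 as reference, 647 genes were called for level and 186 for 3'UTR choice, and the sign changed at CG1275 (0.83), Cyt-c-p (0.74), Idgf1 (0.50), ND-30 (0.41), ND-ACP (0.21), Naprt (−0.41), pdm2 (1.13), CG10211 (3.20), CG11912 (0.43), CG43089 (1.05), CG5177 (−5.80) and mxt (−1.60). The sign of Mal-B2 changed without mutant body 1, its leave-one-out range being −0.25 to 1.27, and that of strat with positions under 5 reads left out (7.09). The cause of these changes was not tested.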
